A study of Homo sapiens with 12 samples.

Results

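The genes of the insulin-like growth factor (IGF) binding proteins, of the IGF receptors and of IGF2 were followed across 4 lines of MIA PaCa-2, a cell line from a human pancreatic carcinoma. Members were all rows of the deposited expression table whose symbol was IGFBP1 to IGFBP7, IGF1R, IGF2R or IGF2. These 10 symbols took 11 of the 63086 gene rows, because IGF2 also had a second gene entry (ENSG00000284779.3) that held 0 reads in every library. Of the 10 genes, 9 passed the minimum of a mean of 10 normalised counts and were tested among 15987 genes. IGFBP5 did not pass.

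IGF1 and IGF2 are secreted growth factors that act through the receptor tyrosine kinase IGF1R, while IGF2R, the cation-independent mannose 6-phosphate receptor, takes up IGF2 and sorts lysosomal enzymes. The IGFBPs are secreted proteins that bind IGFs in the fluid around cells, hold them away from IGF1R or carry them to it, and are cut by proteases that set the ligand free. TIMP1 encodes tissue inhibitor of metalloproteinases 1, a secreted inhibitor of such a class of proteases.

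The study compared 4 lines, each with 3 libraries named as biological replicates. WT was the unmodified line. CRISPR Control had gone through CRISPR-Cas9 editing and carried a silent point mutation in TIMP1 and no other stated change. TIMP1 KO 1 and TIMP1 KO 2 were knockout clones edited in exon 4 of TIMP1. All 4 lines were grown in RPMI 1640 with fetal calf serum and antibiotics. Each edited line stands for 1 clone or line, so an effect of the lost TIMP1 and a difference between clones cannot be told apart within it. The titles number replicates 1 to 3 without saying whether they were separate cultures, so p-values measure the spread between these samples, which may be technical.

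Libraries held 26908701 to 36093563 reads in genes. The TIMP1 transcript, the edited gene, had normalised counts of 3837, 3290.2 and 3532 in WT, of 2285, 2826 and 2959 in CRISPR Control, of 1562, 1624 and 1613 in KO 1 and of 1136, 1192 and 1155 in KO 2 (replicates 1, 2 and 3). All 6 knockout libraries lay below the other 6. Reads counted over the whole gene do not show the edit itself, and the opposite-strand gene SYN1 overlaps TIMP1. The keratins KRT8, KRT18 and KRT19 and vimentin, defining transcripts of this epithelial line with mesenchymal traits, stood at 3792 normalised counts or more in every library, and the 9 markers of this kind summed to between 109872 and 137660 in CRISPR Control against 252061 to 316729 in the other lines. The cadherins on that list were low in the knockouts, with CDH1 at means of 1189 for WT, 1424 for CRISPR Control, 128 for KO 1 and 84.9 for KO 2, and CDH2 at 571, 1109.9, 93.7 and 384 in the same order. KRT7, also listed, was far lower than the other keratins, at means of 91.5, 112, 121 and 191 in that order. EPCAM had means of 1890, 1875, 2036 and 1299, and ZEB1 of 1226, 954, 1288 and 1258. Replicates of CRISPR Control also lay farthest apart, with a chi-square per gene of 18.0 to 29.9 between pairs, against 4.59 to 16.6 in the other lines. Of the leukocyte markers, CD3E and NKG7 stayed at 3 reads or fewer in every library and PTPRC at 9 or fewer, while CD14 had mean normalised counts of 36.2 for WT, 36.5 for CRISPR Control, 83.0 for KO 1 and 161 for KO 2. Of 5 fibroblast markers, DCN and FAP stayed at 3 reads or fewer, and the list summed to 30.5 to 43.0 for WT, 54.6 to 70.8 for CRISPR Control, 31.5 to 53.0 for KO 1 and 302 to 357 for KO 2, most of it PDGFRA. The 3 endothelial markers summed to between 2.65 and 32.3 in all libraries. The part of these transcripts in the results was not tested.

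A normalised count is the number of reads of a gene divided by a size factor of its library, and 1 read was worth between 0.828 and 1.19 of them. Values given as 3 numbers are replicates 1, 2 and 3. A gene was called where the limma test on log2(normalised count + 1) gave an adjusted p below 0.05 over all genes tested, and log2 fold changes are on that scale. In such bulk libraries, fewer cells that express a gene and less RNA per cell cannot be told apart.

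Binding protein transcripts differed between the lines in several patterns. IGFBP3, IGFBP4 and IGFBP6 were higher than WT in both knockouts and lower than WT in CRISPR Control, and IGFBP2 showed the reverse in all 3 lines. IGFBP1 was near the detection floor in WT and CRISPR Control and rose in both knockouts. IGFBP7 rose in KO 1, fell in CRISPR Control and stood at the WT level in KO 2.

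**Figure D1:**
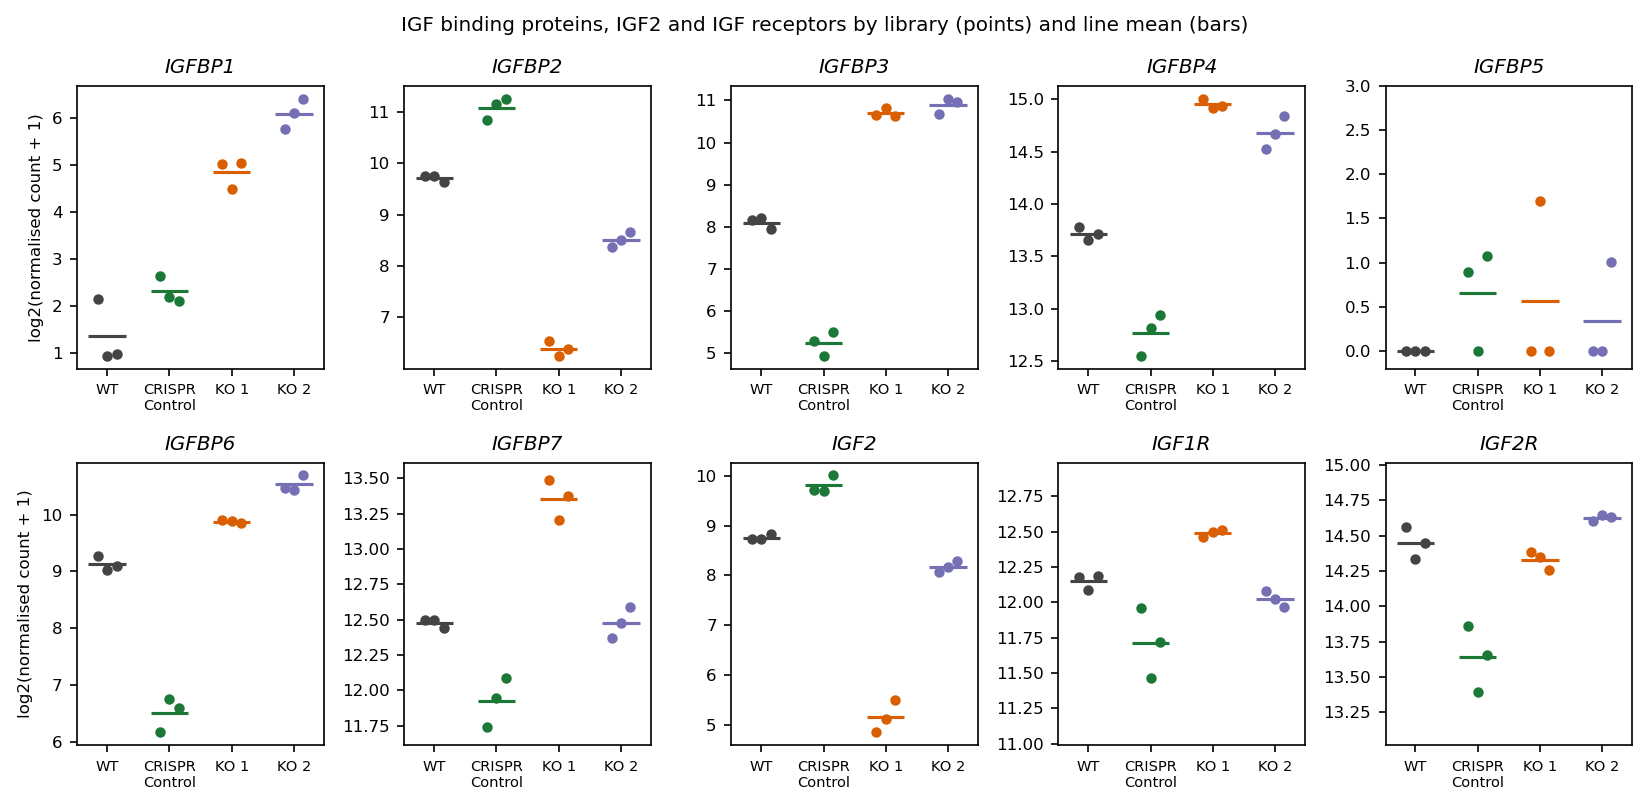
Expression of the 10 members in the 12 libraries, as log2(normalised count + 1) on vertical axes that differ between panels. Points are libraries and bars the means of the 3 libraries of a line. IGFBP3, IGFBP4 and IGFBP6 have all 6 knockout libraries above the other 6, IGFBP2 and IGF2 have them below, and IGFBP5 stays at 2 reads or fewer.

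Because IGFBP3, IGFBP4 and IGFBP6 moved together and IGFBP2 moved against them, the 250 bases before the start of the main transcript of each are shown. They are as given in the RefSeq promoter table of GRCh38.p14 and written from 5′ to 3′ on the strand of the gene. The windows of IGFBP3 and IGFBP2, and most of that of IGFBP6, lie within the bounds of the gene given below. Of the 10 members, 7 had an entry (9 entries in all, since IGFBP2 had 3, of which the start that matched the main transcript in GENCODE release 44 is shown). IGFBP1, IGFBP7 and IGF2 had none. Capitals mark each match to the GC box, the motif of SP-family factors (GGGCGG, or CCGCCC on the other strand), and to the TATA box (TATAAA, or TTTATA on the other strand), and no matches overlapped.
IGFBP3, chr7:45921273-45921522, minus strand: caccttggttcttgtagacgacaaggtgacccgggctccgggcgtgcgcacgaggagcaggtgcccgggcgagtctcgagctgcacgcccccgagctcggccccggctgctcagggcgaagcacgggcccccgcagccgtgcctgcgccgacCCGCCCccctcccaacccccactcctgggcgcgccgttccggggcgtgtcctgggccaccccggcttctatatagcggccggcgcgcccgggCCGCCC
IGFBP4, chr17:40443200-40443449, plus strand: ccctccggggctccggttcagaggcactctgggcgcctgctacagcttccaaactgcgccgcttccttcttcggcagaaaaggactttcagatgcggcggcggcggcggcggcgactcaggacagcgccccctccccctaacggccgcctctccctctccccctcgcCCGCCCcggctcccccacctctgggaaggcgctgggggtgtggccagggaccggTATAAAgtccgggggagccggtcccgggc
IGFBP6, chr12:53097417-53097666, plus strand: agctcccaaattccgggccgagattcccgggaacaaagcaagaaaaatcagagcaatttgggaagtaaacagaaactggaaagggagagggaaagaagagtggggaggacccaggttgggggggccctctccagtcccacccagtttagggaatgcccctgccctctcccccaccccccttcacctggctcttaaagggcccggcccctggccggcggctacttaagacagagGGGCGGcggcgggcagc
IGFBP2, chr2:216633170-216633419, plus strand: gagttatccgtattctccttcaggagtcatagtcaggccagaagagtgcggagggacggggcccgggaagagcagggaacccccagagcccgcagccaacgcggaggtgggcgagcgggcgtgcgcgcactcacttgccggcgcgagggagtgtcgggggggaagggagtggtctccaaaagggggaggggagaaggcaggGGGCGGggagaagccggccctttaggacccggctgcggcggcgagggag

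All 4 windows held a GC box. It began 98 and 6 bases before the start in IGFBP3, 83 bases before it in IGFBP4, 17 in IGFBP6 and 49 in IGFBP2. Of 35116 promoter windows of the same length, 42.6% held this motif. The TATA box in the letters searched (TATAAA or TTTATA) stood 29 bases before the start in IGFBP4 alone, and 10.7% of all windows held one. Variants of it, such as the tatata in the IGFBP3 window, were not searched. The CCAAT box (CCAAT or ATTGG, in 32% of all windows) and the AP-1 site (TGACTCA or TGAGTCA, in 4.2%) were in none of the 4. The share of G and C was 76.0% in IGFBP3, 71.6% in IGFBP4, 61.2% in IGFBP6 and 69.2% in IGFBP2, against a median of 58% over all windows. A match describes these letters only.

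IGFBP3, the main carrier of IGFs in serum and a protein that can also act on cells without them, spanned the widest range of line means of all members. Its gene (ENSG00000146674.16) lies on the minus strand of chromosome 7 from 45912245 to 45921874 (GRCh38). The normalised counts were 284, 295 and 244 in WT and 38.0, 29.7 and 44 in CRISPR Control, and rose to 1615, 1810.4 and 1579 in KO 1 and to 1630.2, 2101 and 2003 in KO 2. The knockouts thus lay well above WT and CRISPR Control well below it, with no overlap between these 3 levels, while the libraries of the knockouts overlapped each other. Against WT, mean levels were 6.09-fold higher in KO 1 (log2 fold change 2.60 ± 0.13 SE, limma adjusted p 2.46e-11) and 6.97-fold higher in KO 2 (2.79 ± 0.13, adjusted p 4.06e-12). CRISPR Control held 13.6% of the WT level (-2.86 ± 0.13, adjusted p 2.35e-12). KO 2 and KO 1 differed by 0.19 on the log2 scale, with a 95% confidence interval from -0.09 to 0.47 and an adjusted p of 0.284 by limma. No other gene overlaps IGFBP3 in the annotation, nor IGFBP1, IGFBP2, IGFBP4 or IGFBP6.

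IGFBP4, an inhibitor of IGF action in most settings and the substrate of the protease PAPPA, was the most abundant binding protein transcript. Its gene (ENSG00000141753.7) lies on the plus strand of chromosome 17 from 40443450 to 40457725. Libraries of WT held 14048, 12873 and 13386 normalised counts and those of CRISPR Control 5998, 7184 and 7855. Those of KO 1 held 32877, 30942 and 31278 and those of KO 2 23645, 26055 and 29421. All 4 lines were separate from each other, in the order KO 1, KO 2, WT and CRISPR Control. The level was 2.36-fold that of WT in KO 1 (log2 fold change 1.24 ± 0.09 SE, adjusted p 4.93e-09 by limma) and 1.96-fold in KO 2 (0.97 ± 0.09, adjusted p 5.61e-08). CRISPR Control held 52.2% of it (-0.95 ± 0.09, adjusted p 8.52e-08). The step from KO 2 up to KO 1 was small (-0.27 for KO 2 minus KO 1, adjusted p 0.0269) and was not called in 8 of 21 alternative analyses, whose adjusted p ranged from 0.00648 to 0.828. Equal library totals were among them and gave -0.17 with an adjusted p of 0.125.

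IGFBP6 binds IGF2 in preference to IGF1. Its gene (ENSG00000167779.9) lies on the plus strand of chromosome 12 from 53097436 to 53102345. Normalised counts were 618, 521 and 544 for WT, 70.8, 107 and 95.6 for CRISPR Control, 956, 945 and 920.5 for KO 1 and 1419, 1384 and 1654 for KO 2. No library of a line overlapped those of another line, and KO 2 stood highest. The rise over WT was 1.68-fold in KO 1 (log2 fold change 0.75 ± 0.13 SE, limma adjusted p 0.000128) and 2.65-fold in KO 2 (1.4 ± 0.13, adjusted p 2.48e-08). KO 2 lay above KO 1 by 0.65 on the log2 scale (adjusted p 0.000429). In CRISPR Control the transcript stood at 16.2% of WT (-2.63 ± 0.13, adjusted p 3.36e-12).

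IGFBP2, a binding protein of fetal and many tumour tissues that also carries an integrin-binding motif, ran the other way. Its gene (ENSG00000115457.10) lies on the plus strand of chromosome 2 from 216632828 to 216664436. WT libraries held 858, 857 and 791 normalised counts and CRISPR Control libraries 1827, 2295 and 2445. KO 1 libraries held 91.8, 75.4 and 82.2 and KO 2 libraries 331, 363 and 405. Each line again stood clear of the others, with KO 1 lowest and CRISPR Control highest. KO 1 held 9.95% of the WT level (log2 fold change -3.32 ± 0.12 SE, limma adjusted p 8.23e-14) and KO 2 43.8% (-1.19 ± 0.12, adjusted p 7.96e-08). CRISPR Control was 2.62-fold above WT (1.38 ± 0.12, adjusted p 1.23e-08). The knockouts were 2.13 apart on the log2 scale, with KO 2 higher (adjusted p 6.8e-11).

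IGFBP1, a liver binding protein known for its response to insulin, was barely transcribed in the lines with intact TIMP1. Its gene (ENSG00000146678.10) lies on the plus strand of chromosome 7 from 45888360 to 45893660, with 18.6 kb between it and IGFBP3. WT libraries held 3, 1 and 1 reads and CRISPR Control libraries 6, 3 and 3. KO 1 libraries held 29, 19 and 36 reads and KO 2 libraries 64, 77 and 83. WT lay at or under the floor of 3 reads that a count of 0 allows, and all knockout libraries lay above all others. Scaled for library size, the summed reads of KO 1 were 17.3 times those of WT (exact 95% interval 7.12 to 54.6) and those of KO 2 40.7 times (17.2 to 127), where the intervals cover counting error only. By limma both rises were called, with log2 fold changes of 3.50 (adjusted p 1.29e-06) and 4.74 (adjusted p 9.43e-09), sizes that depend on the added count of 1. IGFBP1 passed the minimum of a mean of 10 only through the knockout lines, so these calls are a description. CRISPR Control was called above WT at an adjusted p of 0.0489 (0.96 on the log2 scale), but its 12 reads against 5 gave a ratio of 2.50 with an exact interval from 0.820 to 9.06. That call was lost in 18 of 20 alternatives, whose adjusted p ran from 0.00758 to 0.303. KO 2 lay above KO 1 by 1.24 (limma adjusted p 0.0189), and 5 of 20 alternatives lost this call, with adjusted p from 0.000477 to 0.112.

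IGFBP7 binds IGFs weakly and is a component of vessel walls and tumour stroma. Its gene (ENSG00000163453.11) lies on the minus strand of chromosome 4 from 57030773 to 57110385, and POLR2B and an antisense RNA overlap it on the plus strand, so their reads could be shared if strand was not used in counting. Normalised counts were 5778, 5776 and 5563 for WT, 3420.4, 3946 and 4351 for CRISPR Control, 11469, 9453 and 10651 for KO 1 and 5292, 5694 and 6179 for KO 2. KO 1 stood above and CRISPR Control below all other libraries, while WT and KO 2 overlapped. KO 1 changed by 0.88 ± 0.09 SE on the log2 scale against WT (limma adjusted p 3.07e-07) and CRISPR Control by -0.55 ± 0.09 (adjusted p 4.15e-05). For KO 2 the change was 0.00, with a 95% confidence interval from -0.19 to 0.19 and an adjusted p of 0.991. The difference between the knockouts itself was called (-0.88 for KO 2 minus KO 1, adjusted p 3.21e-07).

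IGFBP5, a binding protein of muscle, bone and mammary gland, was not detectable above the floor. The reads were 0, 0 and 0 for WT, 1, 0 and 1 for CRISPR Control, 0, 2 and 0 for KO 1 and 0, 0 and 1 for KO 2. A count of 0 allows up to 3 reads per library, which is 2.49 to 3.56 normalised counts, so no difference could be seen at this depth. Its gene (ENSG00000115461.5) lies on the minus strand of chromosome 2 from 216672105 to 216695549, only 7.7 kb from IGFBP2, which was read at 83.1 normalised counts or more as the mean of every line. The antisense RNA DIRC3-AS1 overlaps it.

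The lines also differed in which binding protein made up the pool of IGFBP transcripts. Levels of different genes were compared as normalised counts per kb of exon, with all annotated exons of a gene merged. IGFBP4 was the largest part of the pool in every line, at 62.8% ± 0.947 for WT, 55.3% ± 0.264 for CRISPR Control, 68.7% ± 1.09 for KO 1 and 72.2% ± 0.565 for KO 2 (mean share ± SD, n = 3 each). IGFBP7 followed with 30.5% for WT, 35.3% for CRISPR Control, 26.0% for KO 1 and 17.9% for KO 2. These 2 genes thus held most of the pool throughout, and with these merged lengths neither share overlapped between any of the 4 lines. IGFBP2 took 1.82% for WT, 8.02% for CRISPR Control, 0.0836% for KO 1 and 0.466% for KO 2. IGFBP3 took 0.619%, 0.143%, 1.75% and 2.53% in the same order, and IGFBP6 took 4.29%, 1.17%, 3.34% and 6.67%.

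The share of IGFBP6 was therefore lower in KO 1 than in WT although its own level was higher, since IGFBP4 and IGFBP7 rose beside it. The pool as a whole was 9704 ± 322 normalised counts per kb for WT, 5744 ± 745 for CRISPR Control, 20928 ± 958 for KO 1 and 16566 ± 1693 for KO 2 (mean ± SD, n = 3 each). Its lowest knockout library (14978) lay above the highest library of the other lines (10069). The shares depend on the length used. With the main transcript of each gene alone, IGFBP2 made up 20.4% of the pool in CRISPR Control and IGFBP4 42%, and the order of the 2 leading genes was kept in every line. The IGFBP7 shares of WT (34.3% to 36.3%) and of CRISPR Control (35.6% to 36.9%) then overlapped.

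**Figure D2:**
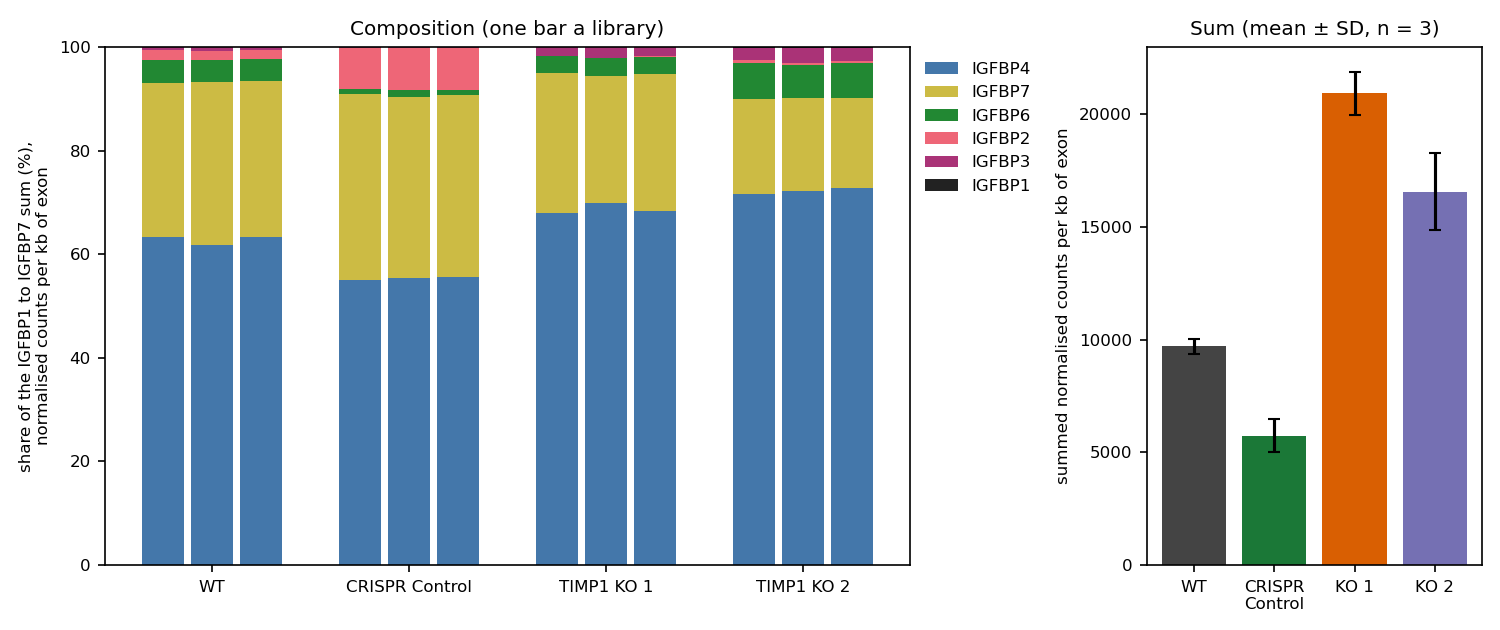
Left, share of each binding protein in the summed IGFBP1 to IGFBP7 signal of a library (%, normalised counts per kb of merged exons), with 1 bar a library and 3 bars a line. Right, the sum itself as mean ± SD of 3 libraries. IGFBP4 and IGFBP7 fill most of every bar, the IGFBP2 part is largest in CRISPR Control (8.02%), and the sum is highest in KO 1 (20928 per kb).

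Among the receptors, IGF1R, the receptor tyrosine kinase for IGF1 and IGF2, moved little. Its gene (ENSG00000140443.15) lies on the plus strand of chromosome 15 from 98648539 to 98964530, with long noncoding RNAs overlapping it on the minus strand. Normalised counts were 4645, 4360.2 and 4659 for WT, 3989, 2825 and 3366 for CRISPR Control, 5642, 5773 and 5855 for KO 1 and 4327, 4163 and 4009 for KO 2. KO 1 was above and CRISPR Control below every other library, and each KO 2 library was below each WT library. KO 1 was 1.26-fold above WT (log2 fold change 0.34 ± 0.09 SE, limma adjusted p 0.00725) and CRISPR Control held 74.5% of WT (-0.44 ± 0.09, adjusted p 0.000553). KO 2 was not called against WT (-0.13, 95% confidence interval -0.32 to 0.06, adjusted p 0.246).

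IGF2R was the receptor with the higher level per length, at 990 normalised counts per kb in WT against 327 for IGF1R. Its gene (ENSG00000197081.16) lies on the plus strand of chromosome 6 from 159969082 to 160113507, where the antisense RNA AIRN overlaps it. Normalised counts were 24128, 20657 and 22369 for WT, 14907, 10753 and 12916 for CRISPR Control, 21384, 20856 and 19566 for KO 1 and 24863, 25588 and 25353 for KO 2. CRISPR Control was lower than all other lines, WT and KO 1 overlapped, and KO 2 was the highest. Neither knockout was called against WT by limma, with -0.12 in KO 1 (95% confidence interval -0.31 to 0.08, adjusted p 0.357) and 0.18 in KO 2 (-0.02 to 0.37, adjusted p 0.117). In KO 2 it was called in 5 of 21 alternatives, with log2 fold changes of 0.12 to 0.32 and adjusted p of 0.00463 to 0.352, equal library totals (0.27, adjusted p 0.0199) among them. CRISPR Control held 57.4% of the WT level (-0.81 ± 0.09 SE, adjusted p 8.15e-07).

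IGF2, the fetal growth factor expressed from the paternal allele in most tissues, was the member whose level followed IGFBP2 most closely. Its gene (ENSG00000167244.22) lies on the minus strand of chromosome 11 from 2129112 to 2158391, and overlaps INS-IGF2 on the same strand, which held 0 reads in all libraries, and IGF2-AS on the other, whose line means ran from 0.655 to 8.63. Normalised counts were 422, 423 and 451 for WT, 839, 827 and 1026 for CRISPR Control, 28.1, 33.8 and 44.2 for KO 1 and 269, 285 and 311 for KO 2. The 4 lines did not overlap, with CRISPR Control highest and KO 1 lowest. KO 1 held 8.18% of the WT level (log2 fold change -3.60 ± 0.14 SE, limma adjusted p 5.2e-13), whereas KO 2 held 66.7% (-0.58 ± 0.14, adjusted p 0.00205). CRISPR Control was 2.08-fold above WT (1.05 ± 0.14, adjusted p 6.6e-06). The knockouts were 3.01 apart on the log2 scale (adjusted p 8.97e-12), which was the largest difference between them among the members tested.

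Against WT by limma, 8 of the 9 members tested were called in KO 1, where 35.5% of all genes were, and 5 were called with at least a 2-fold change, against 8.21% of all genes. In KO 2, 6 were called (all genes 55.0%) and 4 at 2-fold or more (14.7%). In CRISPR Control, which had no knockout, all 9 were called (53.4%) and 4 at 2-fold or more (14.7%). All 3 comparisons share the WT libraries. The median absolute log2 fold change of the 9 members was 1.24 in KO 1, 0.97 in KO 2 and 0.96 in CRISPR Control, beside 0.24, 0.37 and 0.35 over all genes tested. The members had been chosen with earlier results of these libraries known, so these counts describe them only. These counts include IGFBP1, which reached the test through its knockout libraries, and each would be 1 lower without it, other than the count at 2-fold or more in CRISPR Control.

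Against CRISPR Control, all 9 members were called in KO 1 (all genes 63.0%), 7 of them at 2-fold or more (21.2%), and all 9 in KO 2 (67.7%), 6 of them at 2-fold or more (24.5%). Between the knockouts, 8 were called (38.2%), all but IGFBP3, and IGFBP1, IGFBP2 and IGF2 differed at least 2-fold (8.25% of all genes). All of these counts include IGFBP1, which reached the test through its knockout libraries.

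**Figure D3:**
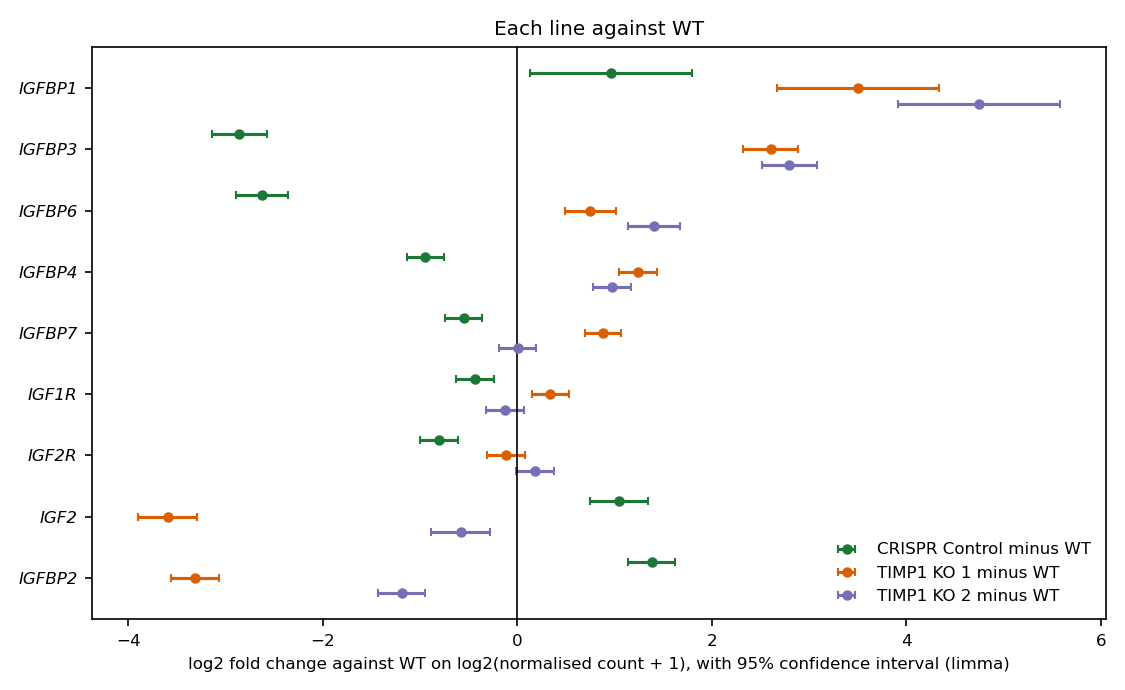
Log2 fold change of each tested member against WT in CRISPR Control, KO 1 and KO 2, with 95% confidence intervals from limma on log2(normalised count + 1). For IGFBP2, IGFBP3, IGFBP4, IGFBP6 and IGF2 the CRISPR Control point lies on the other side of 0 from both knockout points.

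The side of WT on which CRISPR Control stood was a further point of difference. Both knockouts were called on 1 side of WT and CRISPR Control on the other for 5 members, namely IGFBP2, IGFBP3, IGFBP4, IGFBP6 and IGF2, against 9.56% of all genes. For 6 members, these 5 and IGFBP1, the 6 knockout libraries did not overlap the 6 of WT and CRISPR Control, against 24.7% of all genes. IGFBP1 is among the genes tested only through its knockout libraries. The study took as dependent on TIMP1 those genes that changed in both knockouts and not in CRISPR Control. With the same direction asked of both knockouts, that intersection held 10.2% of all genes and 0 members by limma. An unadjusted p below 0.05 could only give 0 members as well, since all 9 were already called in CRISPR Control. The intersection held 1 member, IGFBP1, by edgeR and by DESeq2 on recovered reads, because CRISPR Control was then not called.

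When the mean of the knockout (TIMP1-deficient) lines was set against the mean of WT and CRISPR Control (the competent lines), all 9 members were called (all genes 65.9%) and 6 changed at least 2-fold (14.5%). IGFBP1, IGFBP3, IGFBP4, IGFBP6, IGFBP7, IGF1R and IGF2R were higher (32.9% of all genes), and IGFBP2 and IGF2 were lower (33.0%). The largest change was that of IGFBP3 (log2 fold change 4.13 ± 0.09 SE, limma adjusted p 2.9e-17), followed by IGFBP1 (3.64), IGFBP2 (-2.94), IGF2 (-2.61), IGFBP6 (2.39) and IGFBP4 (1.58). IGFBP1 reached the test through its knockout libraries, so its call, its part in these counts and its place are a description. Its log2 fold change ran from 2.08 to 4.08 over 19 alternatives. IGFBP7 (0.72), IGF2R (0.43) and IGF1R (0.32) changed less. For all members tested but IGFBP1, CRISPR Control lay on the other side of WT from the mean of the knockouts, which adds to these values. IGFBP1 in CRISPR Control lay between WT and the knockouts, which lowers its value. For IGF2R neither knockout differed detectably from WT, and it was the low level of CRISPR Control that set the groups apart.

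Correlations between members over the 12 libraries restate the patterns above, since they hold the same differences between lines. Pearson correlations of log2(normalised count + 1), given as a description over libraries that fall into 4 lines, were 0.981 for IGFBP3 with IGFBP4, 0.964 for IGFBP3 with IGFBP6 and 0.971 for IGFBP2 with IGF2. IGFBP7 ran opposite to IGF2 at -0.957 and to IGFBP2 at -0.933. The 3 members with the widest range of line means were each set against 11634 other genes with a mean of at least 100 normalised counts. IGFBP3 was most like TGFBI, a secreted matrix protein (r = 0.997), DKK3, a secreted glycoprotein of the Dickkopf family (0.995), and RSPH3 (0.995). TGFBI had means of 3005 for WT, 782 for CRISPR Control, 12546 for KO 1 and 12662 for KO 2. IGFBP2 was most like the death receptor TNFRSF21 (0.998), the histone variant gene H2AFY2 (0.996) and the ubiquitin ligase NEDD4L (0.996), and IGFBP1 was most like SEL1L3 (0.976), NIPAL3 (0.976) and TCP11L2 (0.974).

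The genes around these members in the IGF system were taken from 6 lists and compared between the knockout lines and the other lines by limma. In this comparison the median log2 fold change over all genes tested was 0.00. Of all genes tested, 32.9% were called higher and 33.0% lower in it, beside which the counts of each list are to be read. No list sum was tested. A call in this comparison can rest on CRISPR Control alone, and values of single lines or against WT are given for some genes and lists only.

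Of the other ligands and receptors, IGF1, INS, INSRR and the acid-labile subunit gene IGFALS were too low to test. IGF1 reached at most 1 read in a library, so IGF2 was the only IGF transcript with appreciable reads in these cells. The insulin receptor gene INSR had a log2 fold change of -0.57 between the knockout and other lines (limma adjusted p 0.000839), but against WT it was called in KO 1 (-0.68, adjusted p 0.00789) and not in KO 2 (-0.26, adjusted p 0.242). The binding protein relative IGFBPL1 had 0.80 (adjusted p 1.23e-10), with 0.25 in KO 1, 0.00 in KO 2 (adjusted p 0.979) and -1.33 in CRISPR Control against WT, and its KO 2 libraries overlapped those of WT. LRP1, a cell surface receptor for IGFBP3, was higher (0.49, adjusted p 0.00015), with means of 1390.5 for WT, 1793 for CRISPR Control, 2098 for KO 1 and 2298 for KO 2.

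Of the proteases that cut IGFBPs and their inhibitors, 17 of 22 were tested, 7 were higher, 8 lower and 2 were not called, with a median of -0.13, where 65.9% of all genes were called. PAPPA, the protease that cuts IGFBP4, rose with its substrate. Its means were 11.2 ± 5.00 for WT, 5.48 ± 2.08 for CRISPR Control, 52.4 ± 7.11 for KO 1 and 37.3 ± 2.65 for KO 2 (SD, n = 3 each). The log2 fold change between the knockout and other lines was 2.42 ± 0.25 SE (limma adjusted p 8.68e-08). WT and CRISPR Control together had a PAPPA mean of 8.32, under the minimum mean for testing. PAPPA thus reached the test through its knockout libraries, so its call as higher is a description. The matrix metalloproteinases MMP1 and MMP7 differed between the knockouts. MMP1 fell in KO 1 (5.17 against 25.5 in WT) and rose in KO 2 (253) and in CRISPR Control (389). MMP7 was called against WT in KO 1 (113, against 15.8 in WT) and not in the other lines (12 in CRISPR Control and 13.3 in KO 2), and the knockouts differed by -3.16 on the log2 scale (KO 2 minus KO 1, limma adjusted p 7.04e-06).

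Of 8 tested genes for other secreted proteins with an IGFBP-type domain, 4 were higher, 2 lower and 2 were not called (median 0.40). Of the higher ones, CCN1 had means of 17441 in KO 1 and 17723 in KO 2, close to 17708 in WT, beside 5929 in CRISPR Control. CCN4 lay below WT in KO 1 and above it in KO 2 (232 and 505 against 369), with 41.5 in CRISPR Control. CCN5 (WISP2 in the deposited table), a regulator of smooth muscle growth, was lower in both knockouts, at 17.7 in KO 1 and 13.9 in KO 2 against 78.7 in WT and 72.9 in CRISPR Control (-2.26, limma adjusted p 2.08e-08). It was the only gene of this list in the intersection. CCN3 (NOV) was mostly a CRISPR Control transcript, with 62.9 there, 3.49 in WT, 0.294 in KO 1 and 10.4 in KO 2. It reached the minimum mean for testing through CRISPR Control, so its call as lower is a description. KAZALD1, a secreted protein of bone, had the order of lines of IGFBP6, with 586 for WT, 156 for CRISPR Control, 947 for KO 1 and 1456 for KO 2 (1.96, limma adjusted p 9.6e-14).

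Signalling genes downstream of the receptors mostly changed by small amounts. Of 28 tested adaptors and PI3K-AKT genes, 10 were higher, 8 lower and 10 were not called. The counts were 12, 7 and 9 with equal library totals, and 9, 7 and 12 with quantile normalization. The median absolute log2 fold change was 0.20, beside 0.35 over all genes tested. Against WT, 11 of the 28 were called in KO 1, 15 in KO 2 and 19 in CRISPR Control (all genes 35.5%, 55.0% and 53.4%). AKT1, MTOR and SOCS2 were called higher although both knockout means lay below WT, since CRISPR Control lay lower still. IRS2 was called lower although both knockout means lay above WT, since CRISPR Control lay highest. FOXO4, a transcription factor held back by AKT, rose in both knockouts (1.69, limma adjusted p 1.64e-07), with 111 in KO 1 and 118 in KO 2 against 30.9 in WT and 42.4 in CRISPR Control. It and FOXO3 were the 2 genes of this list in the intersection. The adaptors GRB14 and SHC1 differed mostly through CRISPR Control, where GRB14 stood at 43.5 (WT 1.54, KO 1 0.375, KO 2 2.12) and SHC1 at 2940.1 (WT 12362, KO 1 15367, KO 2 17390.1). GRB14 reached the minimum mean for testing only through CRISPR Control, so its call as lower is a description.

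Around IGF2 itself, 6 of 8 tested genes of its imprinted locus and of its transcript's regulators were lower, 1 was higher and 1 was not called (median -0.48), against 33.0% of all genes lower and 32.9% higher. Against WT, the median of this list was -0.32 in KO 1, -0.20 in KO 2 and 0.90 in CRISPR Control, and 0 of its genes were in the intersection. H19, the maternally expressed noncoding RNA next to IGF2, had the largest change of any gene in the lists. Its means were 8802 ± 241 for WT, 91894 ± 8404 for CRISPR Control, 525 ± 96.3 for KO 1 and 1545 ± 185 for KO 2 (SD, n = 3 each), and the log2 fold change was -4.99 ± 0.08 SE (limma adjusted p 1.43e-19). H19 and IGF2, whose transcripts come from opposite alleles in most tissues, thus had the same order of lines, from CRISPR Control through WT and KO 2 to KO 1. LIN28B, an RNA-binding protein of fetal cells that blocks let-7, had that order too, at 152 for WT, 498 for CRISPR Control, 30.2 for KO 1 and 42.4 for KO 2 (-2.90, limma adjusted p 1.76e-13). HMGA2 was lower in KO 1 and higher in KO 2 than in WT (2142, 3348 and 2838) and highest in CRISPR Control (6050.5).

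Of the 13 genes of the mannose 6-phosphate sorting route that IGF2R serves, 4 were higher, 5 lower and 4 were not called, with none at 2-fold and a median of -0.03 (0.03 with equal library totals and with quantile normalization). GNPTG and GNPTAB, subunits of the enzyme that makes the mannose 6-phosphate tag, were higher (0.88 and 0.36, limma adjusted p 8.72e-10 and 1.46e-05). The sorting receptor SORT1 was higher than WT in KO 1 (4186 against 3295), lower in KO 2 (2255) and lowest in CRISPR Control (877).

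**Figure D4:**
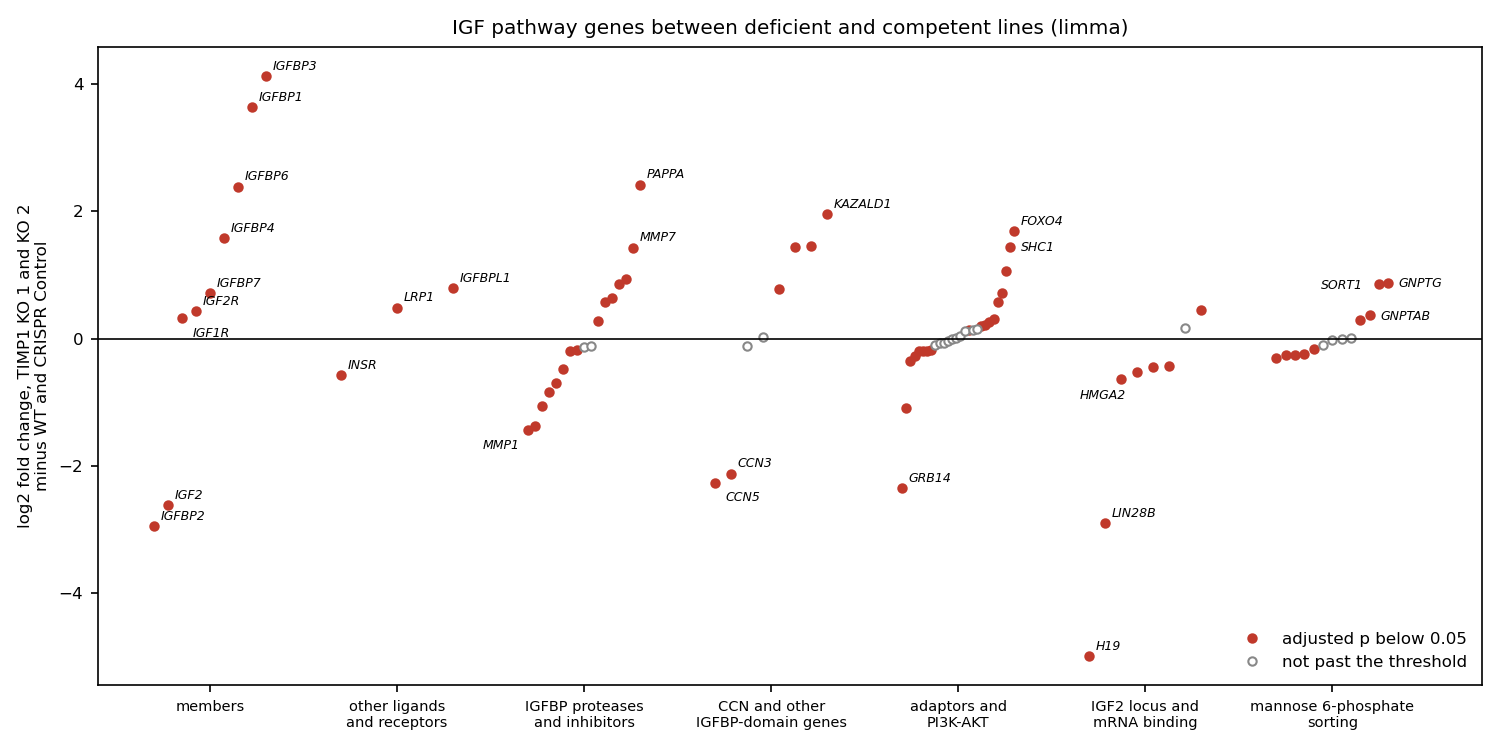
Log2 fold change of the members and of the genes of the 6 lists, each point a gene, for the mean of KO 1 and KO 2 minus the mean of WT and CRISPR Control (limma on log2(normalised count + 1)). Filled points passed the adjusted threshold of 0.05 and open points did not. IGFBP3 lies highest (4.13) and H19 lowest (-4.99).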

How the data were processed

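RNA of 12 MIA PaCa-2 libraries was sequenced by the authors. Per their methods and the submitters' processing notes, adapters were removed with cutadapt, reads were mapped to GRCh38 with STAR, counted per gene with featureCounts and scaled with DESeq2. The deposited values are this signal of normalised counts per gene and library. Strand setting and annotation release were not given in the sources used here, but 97.6% of gene identifiers had the same version in GENCODE release 44, from which lengths and coordinates were taken. Dividing by the smallest step of a library returned whole reads for 100% of values (tolerance 0.01 reads), which gave the depth. The step of TIMP1 KO 2 replicate 3 lay close to 1, so rounding of its values to whole numbers would look alike. The 4 columns of line means and 1 blank line were not used.

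The limma package 3.58.1 (R 4.3.3) was run on log2 values of the normalised count plus 1, for the 15987 genes with a mean of at least 10 (99.9% of reads), with 4 line means fitted to all 12 libraries, eBayes with a trend, two-sided tests and Benjamini-Hochberg adjustment over all genes tested. Groups and replicate numbers came from the sample titles. The fit was tested on simulated counts with known changes. Alternatives were another pseudocount, other filters, equal library totals, quantile normalization, edgeR 4.0.16 and DESeq2 1.42.0 on recovered reads, a replicate block, fits of the compared lines only and 12 fits without 1 library each. Tables and plots were made with Python 3.11.15 and matplotlib 3.10.9.

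The members and the gene lists were chosen with earlier results of these data known. Named genes were the members, TIMP1, the up to 3 called genes of each list with the largest change between knockout and other lines, and the 3 genes most correlated with each of the 3 members of widest range. Genes named beyond this rule were named after their values were seen. They are the markers, FOXO3, AKT1, MTOR, SOCS2, IRS2, CCN1, CCN4, INS-IGF2, the untested ligands and the neighbours on the chromosomes. Motif positions count back from the base before the start of the main transcript. One marker gene is not reported here.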

Additional observations from a re-analysis of the deposited data

Results flagged for a closer look

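For 8 of the 9 members tested, the change against WT differed between the knockout clones, by the limma test of KO 2 minus KO 1, where 38.2% of all genes were called. Without TIMP1 KO 2 replicate 2 it was 5 members, since IGFBP1 (adjusted p 0.059), IGFBP4 (0.0734) and IGF2R (0.057) lost their calls. IGF2 stood 3.01 higher on the log2 scale in KO 2 (-3.60 against WT in KO 1, -0.58 in KO 2) and IGFBP2 stood 2.13 higher (-3.32 and -1.19). IGFBP1 stood 1.24 higher (3.50 and 4.74) and IGFBP6 0.65 higher (0.75 and 1.4). IGFBP7 had a difference of -0.88, since it rose in KO 1 (0.88) and not in KO 2 (0.00). The differences were -0.47 for IGF1R, -0.27 for IGFBP4 and 0.30 for IGF2R. The signs against WT were opposite in the 2 clones for IGF1R (0.34 and -0.13) and IGF2R (-0.12 and 0.18), of which the change of IGF1R in KO 1 was the only one called against WT. The adjusted p values ran from 8.97e-12 for IGF2 to 0.0269 for IGFBP4. Which guide, clone or passage goes with these differences was not tested.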

How the results depend on the processing

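Over all alternatives, 1415 of the log2 fold changes of the members and TIMP1 kept their direction and their side of the threshold, 33 lost a call, 5 gained one and none that was called changed sign. The changed calls belonged to IGFBP1 in CRISPR Control against WT and to IGFBP1, IGFBP4 and IGF2R in KO 2 against KO 1 or WT. The intersection held 0 members in the analysis reported, and 1 (IGFBP1) with a pseudocount of 10, with no filter, with equal library totals, with edgeR, with DESeq2 and with the replicate block, while the fits without 1 library gave 0 to 1 (1 in 11 of 12). Members called in KO 2 against KO 1 were 8, and 5 to 8 without 1 library, the lowest without TIMP1 KO 2 replicate 2. A minimum mean of 50 left IGFBP1 out. The intersection and the comparison of knockout with other lines have no value from fits of the compared lines only. The replicate block changed no member's call other than that of IGFBP1 in CRISPR Control against WT (adjusted p 0.0539). Replicate numbers did not pair the samples, since deviations of the 18 same-numbered pairs correlated at -0.129 to 0.16 with a median of -0.0103. No count of genes called over all genes moved by over 1.5 times. Equal library totals shifted the median log2 fold change of all genes in KO 2 against CRISPR Control to 0.11 and raised the share of higher calls from 49.3% to 59.9% in KO 2 against WT and from 47.4% to 65.5% in KO 2 against KO 1. Counts of IGFBP1 and IGFBP5 were limited by depth.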

Other observations

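The tested genes within 1 Mb of the tested members were compared between the knockout lines and the other lines, in which 32.9% of all genes were called higher and 33.0% lower. Around IGFBP1 and IGFBP3, 9 neighbours had log2 fold changes from -0.17 to 0.82 with a median of 0.02, all smaller than those of IGFBP3 (4.13) and IGFBP1 (3.64), and NACAD was the highest (0.82). Around IGFBP2, 8 of 10 neighbours were called lower and 1 higher, with a median of -0.37, and the lowest was LINC01963 (-0.85), beside -2.94 for IGFBP2 itself. In CRISPR Control against WT, 6 of these 10 were called higher and 0 lower (median 0.42). Against WT, 1 was lower and 1 higher in KO 1 (median 0.00), and 4 were lower and 1 higher in KO 2 (median -0.29). Around IGFBP4, which rose, 20 of 30 neighbours were called lower and 5 higher, with a median of -0.32. In CRISPR Control against WT, which enters that comparison, 18 of these 30 were called higher and 1 lower. Set against WT, KO 1 had 5 of them higher and 8 lower, while KO 2 had 7 higher and 15 lower. Over all genes tested, KO 1 had 35.5% called against WT, KO 2 had 55.0% and CRISPR Control had 53.4%. The largest falls between the knockout and other lines were those of PPP1R1B (-3.74) and of GRB7, an adaptor gene next to ERBB2 (-2.60).

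Around IGFBP6 the 48 tested neighbours had a median of 0.15, 19 were called higher and 8 lower. They ran from -2.36 for the keratin gene KRT4 to 5.05 for the homeobox gene HOXC12. Against WT these neighbours reached no higher than 1.26 in KO 1 and 3.65 in KO 2, and went down to -9.60 in CRISPR Control. The value of HOXC12 thus rests largely on a low level in CRISPR Control. Against WT, 8 were called higher and 3 lower in KO 1, 15 and 8 in KO 2, and 11 and 16 in CRISPR Control. Around IGF2 the 25 neighbours had a median of -0.10, 8 were called higher and 8 lower, and H19 was the lowest (-4.99). Around IGFBP7 the 11 neighbours had a median of -0.08, with 4 called higher, 4 lower and HOPX highest (4.72). For IGF1R the 9 neighbours had a median of 0.23, with 5 called higher, 3 lower and ARRDC4 highest (2.08). For IGF2R the 11 neighbours had a median of -0.09, with 5 called higher, 5 lower and FNDC1 highest (2.64). Neighbours were counted after the values of the members were known.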
